A study of Mus musculus with 6 samples.

Results

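Apoa1, Cebpa and Cps1, 3 genes by which hepatocytes are recognised, were described in Apcfl/fl hepatocarcinoma (HCC) and Apc+/+ normal liver. They are 3 of the 2266 genes for which a tested probe carried a gene symbol. They were found through the RefSeq accession of their probes, and each gene had 1 probe (ASMM9PARTA029223 for Apoa1, ASMM9PARTA027756 for Cebpa and ASMM9PARTA021756 for Cps1). Names of mRNA probes came almost wholly from a deposited table of probes that the study had called between the groups. All 3 genes were therefore already selected for a difference on these same arrays, and the tests below are no independent evidence of their direction.

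Apoa1 encodes apolipoprotein A-I, the main protein of high-density lipoprotein (HDL), which hepatocytes secrete into plasma. Cebpa encodes C/EBPα, a transcription factor that binds DNA as a dimer, activates many genes of the mature hepatocyte and restrains cell division. Cps1 encodes the mitochondrial enzyme carbamoyl phosphate synthetase 1, which feeds ammonia into the urea cycle and is found mainly in periportal hepatocytes, those near the vessels that bring blood into the lobule. Loss of such genes is a known feature of poorly differentiated liver tumours. Wnt/β-catenin signalling, which Apc restrains, favours the opposite, pericentral programme of the lobule.

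The promoters of Apoa1 and Cebpa are shown because the signals of these 2 genes were lowest on the same Apcfl/fl array, as described below. Over both groups together they were the least alike pair of the genes described here. Whether they share regulation was not tested. RefSeq sequences (GRCm38.p6, 250 bases before and 50 after the start of the gene, plus strand) were at hand for both and not for Cps1. The Apoa1 window is chr9:46228380-46228679 and the Cebpa window is chr7:35119043-35119342. Capitals mark the TATA box letters.
Apoa1: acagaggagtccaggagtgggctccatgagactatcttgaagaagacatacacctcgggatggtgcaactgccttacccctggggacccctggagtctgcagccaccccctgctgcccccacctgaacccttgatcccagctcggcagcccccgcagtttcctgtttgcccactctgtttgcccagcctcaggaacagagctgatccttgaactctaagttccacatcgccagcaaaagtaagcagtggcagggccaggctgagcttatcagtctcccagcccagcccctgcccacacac
Cebpa: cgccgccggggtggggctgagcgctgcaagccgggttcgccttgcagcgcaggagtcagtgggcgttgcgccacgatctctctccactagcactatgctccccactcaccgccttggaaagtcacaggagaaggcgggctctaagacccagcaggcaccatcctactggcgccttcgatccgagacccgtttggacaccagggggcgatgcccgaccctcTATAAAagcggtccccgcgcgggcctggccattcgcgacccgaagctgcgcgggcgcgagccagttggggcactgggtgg

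Both strands were searched for 4 motifs, which were TTGCNNAA for the C/EBP family, CAAAGTCCA for HNF4, CTTTGAT for TCF/LEF, the partners of β-catenin, and TATAAA for the TATA box. The sole exact match was TATAAA in Cebpa, from base -30 to base -25 relative to the start. Sites that depart from these letters were not searched for. A missing match therefore does not show that a window lacks a site for that factor. Of 32851 mouse promoter windows of the same length, 13.6% held TATAAA, 10.8% held TTGCNNAA, 3.73% held CTTTGAT and 0.475% held CAAAGTCCA. The 2 windows differed in base composition. The Cebpa window had 67.3% G and C and 29 CpG, more CpG than 87.1% of the windows. The Apoa1 window had 59.3% G and C and 4 CpG, where the median window had 7 CpG.

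RNA came from the liver of C57Bl/6 mice aged 12 months, and per the labels 3 arrays held HCC tissue of APC fl/fl mice and 3 held healthy tissue of APC +/+ mice. The Apcfl/fl mice carry a hypomorphic Apc allele on both chromosomes, with no Cre named for the arrayed mice. No tumour of another genotype was analysed here, so genotype and tumour cannot be told apart. Sex is not stated. The arrays are called here Apcfl/fl replicates 1 to 3 and Apc+/+ replicates 1 to 3. Signals are log2 values after quantile normalisation, so that 1 unit is a 2-fold difference.

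The difference between Apcfl/fl replicates 1 and 2 was below the arrays' technical noise. Their mean chi-square per probe was 0.774 over 29685 probes, where 1 is what noise alone gives, against 14.9 and 15.1 for replicate 3. Apc+/+ replicates 2 and 3 were also close, at 1.99, which is above noise, against 6.37 and 7.56 for replicate 1. With that pair averaged as well, limma called 0 probes. The mean of Apcfl/fl replicates 1 and 2 was used as 1 sample, and the comparison was of 2 Apcfl/fl with 3 Apc+/+ samples. Row 1 of the slide held the Apcfl/fl arrays together with Apc+/+ replicate 1, and row 2 held Apc+/+ replicates 2 and 3, so values within row 1 are given beside the others. Between 50.8% and 82.8% of probes were well above background on an array, and no probe spot was saturated. Apc itself was not analysed here.

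The log2 signal of Apoa1 was 14.62, 14.52 and 13.56 on Apcfl/fl replicates 1, 2 and 3, and 15.54, 16.96 and 16.83 on Apc+/+ replicates 1, 2 and 3. Every Apcfl/fl array was below every Apc+/+ array, by at least 0.93, with Apc+/+ replicate 1 the nearest to the tumours. HCC had a mean of 14.07 ± 0.71 (SD, n = 2) and normal liver one of 16.44 ± 0.79 (SD, n = 3). This gave a log2 change of -2.38 (SE 0.56, 95% CI -3.81 to -0.94), 5.20-fold lower in HCC, with an adjusted p of 0.114 by limma. Before normalisation the processed intensity spanned 12165 to 27474 on the Apcfl/fl arrays and 56079 to 108931 on the Apc+/+ arrays, so that the groups were apart in the scanner values as well.

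Cebpa was tighter among the Apc+/+ arrays. They read 15.63, 15.29 and 15.43, against 14.43, 14.48 and 13.32 on Apcfl/fl replicates 1, 2 and 3. The groups did not overlap, the smallest gap being 0.81, and replicate 3 stood lowest. Group means were 13.89 ± 0.80 (SD, n = 2) for HCC and 15.45 ± 0.17 (SD, n = 3) for normal liver. Cebpa had a log2 change of -1.56 (SE 0.38, 95% CI -2.53 to -0.59), 2.95-fold lower, with an adjusted p of 0.121 by limma. Without Apcfl/fl replicate 3 it was -0.99, just under 2-fold.

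Cps1 was read by a dim probe. On the Apc+/+ arrays the probe ranked 15492 to 20952 from the brightest, where that of Apoa1 ranked 393 to 1008. How well the Cps1 probe reports Cps1 mRNA was not tested. Its log2 signal was 5.99, 6.09 and 6.10 on Apcfl/fl replicates 1 to 3 and 6.72, 7.60 and 7.53 on Apc+/+ replicates 1 to 3. The 3 Apcfl/fl values lay within the technical error of each other, and all were at least 0.62 below the Apc+/+ values. Group means were 6.07 ± 0.04 (SD, n = 2) for HCC and 7.28 ± 0.49 (SD, n = 3) for normal liver. The log2 change was -1.21 (SE 0.33, 95% CI -2.06 to -0.37), 2.32-fold lower, with an adjusted p of 0.147 by limma. The probe was well above background on all 6 arrays by the flag of the scanner software, which was also set for 8.25% to 57.6% of negative-control spots. On the Apcfl/fl arrays, however, 49 to 57 of the 1175 to 1184 negative-control spots, from 2 of the 20 negative-control probes, were as bright as Cps1 or brighter. The median negative-control spot was far dimmer, at 4.33 to 5.73 in processed intensity against 55.6 to 65.0 for Cps1. On Apc+/+ replicates 1, 2 and 3 negative-control spots as bright as Cps1 numbered 1, 0 and 0. The tumour signal was thus no brighter than some negative-control spots, and the size of the change is uncertain. With normexp background correction it was -0.79, under 2-fold.

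**Figure D1:**
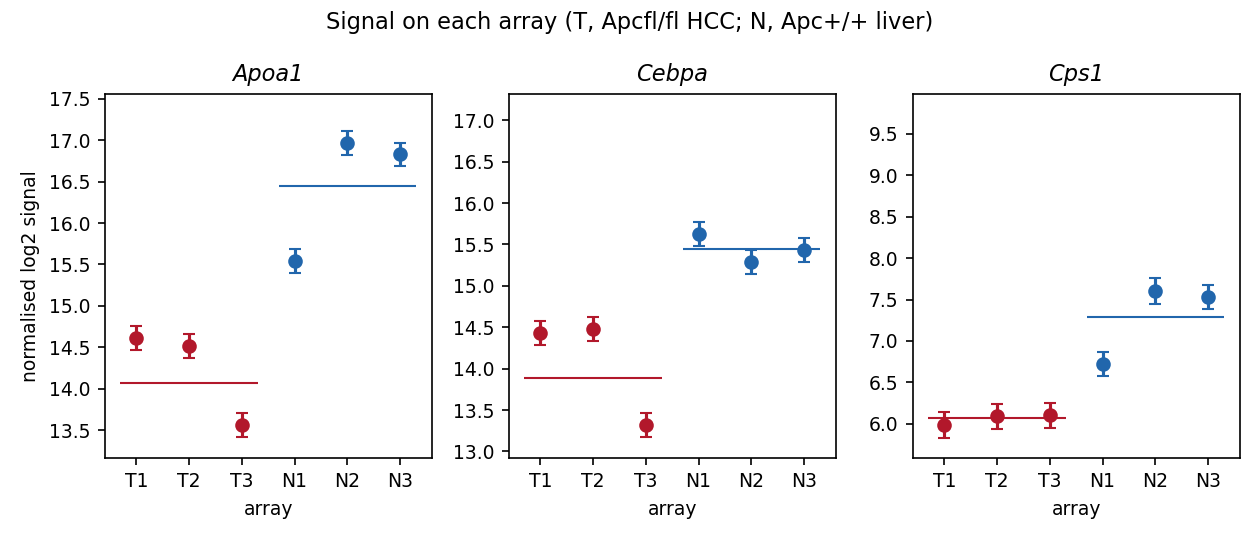
Normalised log2 signal of Apoa1, Cebpa and Cps1 on each array (T, Apcfl/fl HCC, red; N, Apc+/+ liver, blue). Points are arrays, bars the technical error that the scanner software gives and lines the group means (replicates 1 and 2 of Apcfl/fl counted as 1 sample); the y axes start at different levels and span the same range. Every red point lies below every blue point of its gene.

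None of the 3 genes passed the adjusted threshold (adjusted p below 0.05 by limma with a fold change of at least 2) with 5 samples, where 0.896% of the 45640 tested probes were called lower. All 3 passed an unadjusted p of 0.05 with the same fold, as 5.85% of tested probes did, with p 0.00789 for Apoa1, 0.00908 for Cebpa and 0.0139 for Cps1 by limma. Since a probe had to be called by the study to be named, nothing can be read from this. With the 6 arrays taken as 6 samples, 4.1% of tested probes were called lower, and Apoa1 (adjusted p 0.0416) and Cps1 (0.0421) were among them while Cebpa (0.0629) was not. By the methods' t-test on the 6 arrays 3 of 3 passed unadjusted and 0 of 3 after Benjamini-Hochberg adjustment, with adjusted p from 0.102 to 0.145. Of the 45640 tested probes, 2511 passed as lower by that same test before adjustment, and 1629 were called in either direction after it. The study had already called all 3 genes on these arrays, so nothing can be read from their passing unadjusted. The 3 Apcfl/fl arrays all lay below the 3 Apc+/+ arrays for 16.4% of tested probes. The median log2 change over all tested probes was 0.06.

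Liver pieces hold several cell types, and fewer hepatocytes cannot be told apart here from less of these mRNAs per hepatocyte.

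The Apcfl/fl arrays differed among themselves for Apoa1 and Cebpa. Replicate 3 was below the mean of replicates 1 and 2 by 1.002 for Apoa1, a 2.003-fold difference, and by 1.13 for Cebpa, a 2.19-fold difference. For each the technical error of the difference was 0.18 on the log2 scale. Replicates 1 and 2 themselves differed by 0.10 for Apoa1 and by 0.04 for Cebpa. For Cps1 the mean of replicates 1 and 2 was 0.06 under replicate 3, within its technical error of 0.19. Replicate 3 was lower by at least 2-fold for 8.93% of all tested probes, and for 2 of these 3 genes. This sets 1 sample against 1, so no test was possible. When each array was scaled to its 75th percentile instead, the difference was 0.68 for Apoa1 and 0.84 for Cebpa, both under 2-fold.

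Set against the mean of the Apc+/+ arrays, Apoa1 was 3.67-fold lower on replicates 1 and 2 and 7.36-fold lower on replicate 3. Cebpa was 1.99-fold lower and 4.37-fold lower, respectively. Cps1 was 2.37-fold and 2.27-fold lower. Apoa1 and Cebpa were thus furthest from normal liver on the same array, and Cps1 was not. On the Apcfl/fl arrays, however, Cps1 lay only 0.34 to 0.53 log2 units above the brightest negative-control probe. Whether the Cps1 probe could show a lower replicate 3 was not tested.

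**Figure D2:**
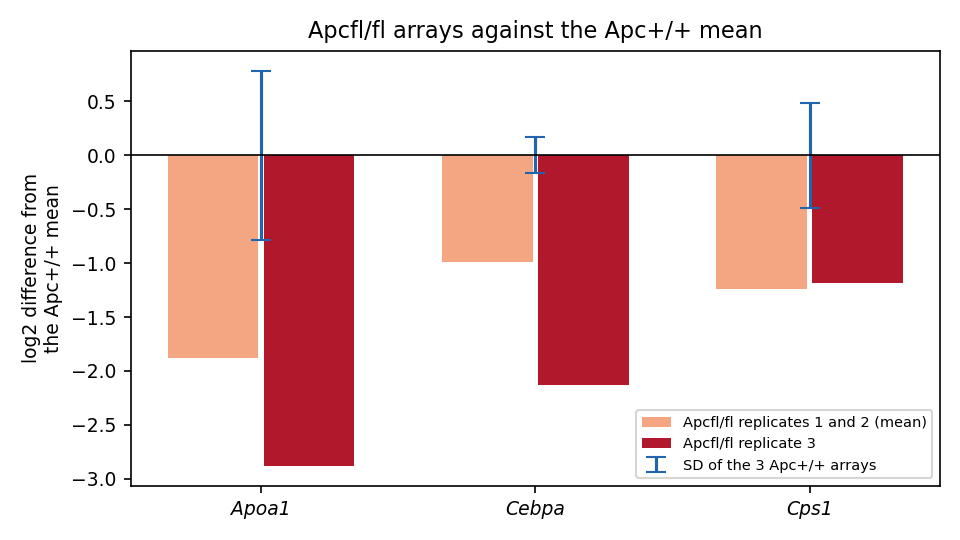
Log2 difference of Apcfl/fl replicates 1 and 2 (mean, light bars) and of replicate 3 (dark bars) from the mean of the 3 Apc+/+ arrays, for each gene. Blue error bars show the SD of the 3 Apc+/+ arrays around their mean, which is at 0. The dark bar is longer by 1.002 for Apoa1 and by 1.13 for Cebpa, and for Cps1 the bars are alike in length.

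The Apc+/+ arrays were not uniform either, and the slide row divided them. Apoa1 was lower by 1.36 on replicate 1 than on the mean of replicates 2 and 3, which were 0.14 apart. Such a 2-fold deficit on replicate 1 was seen for 4.75% of tested probes and for 1 of the 3 genes. Cps1 was lower by 0.84 on replicate 1, whereas Cebpa was higher there by 0.27. Within slide row 1, where the tumours can be set against Apc+/+ replicate 1 alone, the log2 difference was -1.47 for Apoa1, -1.74 for Cebpa and -0.65 for Cps1. Against replicates 2 and 3 it was -2.83, -1.47 and -1.49. Cebpa thus gave similar values against either part of the control group, while the values for Apoa1 and Cps1 depended on it by more than 1.5 times. The part of the slide row in this was not tested.

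Whether the 3 genes differed in the size of their change was asked by an exact permutation test over the 5 samples, for each of the 3 pairs. The log2 change of Apoa1 was below that of Cebpa, with a difference of -0.82 (two-sided exact p 0.4), and below that of Cps1, with a difference of -1.17 (two-sided exact p 0.1). Cebpa and Cps1 differed by -0.35 (two-sided exact p 0.7). The order of Apoa1 and Cebpa turned within slide row 1, where Cebpa had the larger difference (-1.74 against -1.47). Adjusted over the 3 pairs these exact p-values were 0.6, 0.3 and 0.7. With 2 samples against 3 the smallest p this test can give is 0.1, so that none of these differences could pass.

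After each gene was centred on its own mean over the 5 samples, the root mean square difference was 0.72 between Apoa1 and Cebpa, 0.69 between Apoa1 and Cps1 and 0.58 between Cebpa and Cps1. By the same measure, among 2189 other named mRNAs, the closest to Apoa1 were Ces3b (0.10) and Ces2a (0.17), carboxylesterases of hepatocytes, and Id2 (0.18), an inhibitor of basic helix-loop-helix transcription factors. Ces3b read 10.29, 10.35 and 9.26 on Apcfl/fl replicates 1, 2 and 3 and 11.13, 12.45 and 12.52 on the Apc+/+ replicates. The low replicate 3 and intermediate Apc+/+ replicate 1 that it shared with Apoa1 follow from its choice by this measure. Carboxylesterases form a family of similar sequences, and their probes may read more than 1 gene.

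Closest to Cebpa were Gprin3 (0.07), Wdr45b (0.09) and Gstm7 (0.09), the last a glutathione S-transferase with close relatives. Gprin3 read 8.47, 8.42 and 7.23 in Apcfl/fl HCC and 9.67, 9.18 and 9.28 in Apc+/+ liver. Closest to Cps1 were Dbndd2 (0.05), Dync1i1 (0.07), a dynein intermediate chain, and Sec14l4 (0.07), a lipid-binding protein. Sec14l4 was bright, with 15.52, 15.48 and 15.63 in Apcfl/fl HCC and 16.06, 17.00 and 17.05 in Apc+/+ liver. Sec14l4 was picked for this likeness, so its low Apc+/+ replicate 1, shared with Cps1, adds no evidence on the Cps1 probe. None of these 9 mRNAs passed the adjusted threshold with 5 samples by limma (adjusted p 0.0880 to 0.202). All 9 were at least 2-fold lower with an unadjusted p below 0.05 by limma, as were 5.85% of tested probes. Ces2a and Gstm7 passed with 6 arrays, where 4.1% of tested probes were called lower. The 9 were picked among named mRNAs for likeness to genes that passed the same unadjusted threshold, so nothing can be read from these counts.

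**Figure D3:**
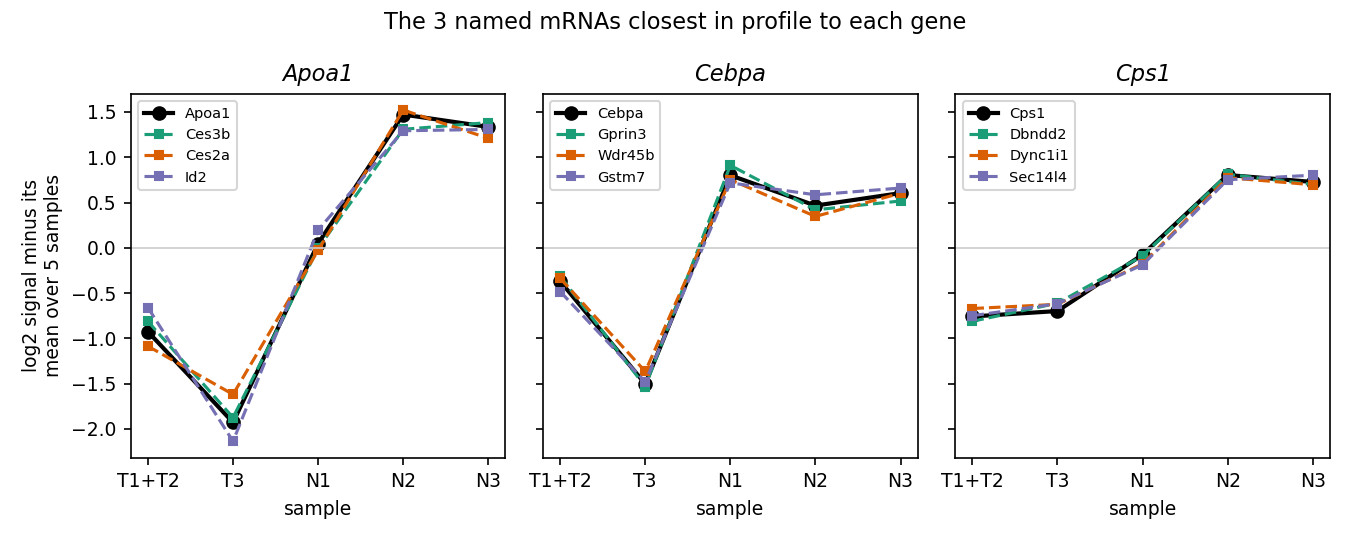
Log2 signal minus its own mean over the 5 samples, for each gene (black) and the 3 named mRNAs closest to it (dashed). Apoa1 and its neighbours are lowest in Apcfl/fl replicate 3 and intermediate in Apc+/+ replicate 1; Cebpa and its neighbours are lowest in replicate 3 and highest in Apc+/+ replicate 1; Cps1 and its neighbours are flat over the Apcfl/fl samples.

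Other genes of the same hepatocyte programmes were taken from lists of known genes, of which those with a name could be read. Since 973 of the 2280 mRNA probes of the study's table were lower and all were called there, the counts describe selected genes. Of 33 hepatocyte transcription factors 8 were named, and all 8 had a lower mean in HCC, with a median log2 change of -1.54. With 5 samples 2 passed the adjusted threshold, and with 6 arrays 6 passed, where 0.896% and 4.1% of all tested probes were called lower. Nr1i3, the xenobiotic receptor CAR, fell by 3.33 (SE 0.20, adjusted p 0.0137), and Nr2f2, an orphan nuclear receptor, fell by 1.76 (SE 0.24, adjusted p 0.0455). Gata4, Onecut2, Nr1h3 (the oxysterol receptor LXRα), Srebf1 and Tbx3 had log2 changes from -1.68 to -1.21 and were not called with 5 samples. Tbx3 was too dim for its change to be sized, since 198 to 258 negative-control spots were as bright or brighter on the Apcfl/fl arrays and up to 76 on the Apc+/+ arrays.

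The low Apcfl/fl replicate 3 of Cebpa was not a feature of the whole list. Replicate 3 was the lower in 4 of the 8, and the median difference was -0.08, with replicates 1 and 2 the lower. Srebf1, which drives lipid synthesis, read 10.82, 10.92 and 12.31 on Apcfl/fl replicates 1, 2 and 3, the reverse of Cebpa.

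Of 29 apolipoprotein and HDL genes 7 were named, and all 7 were lower in mean, with a median log2 change of -1.88. In this list 3 passed the adjusted threshold with 5 samples and all 7 with 6 arrays, against the same 0.896% and 4.1% of all tested probes. Pon1, an HDL-bound esterase, fell by 3.94 (SE 0.39, adjusted p 0.0244), Apoc4 fell by 2.44 (SE 0.20, adjusted p 0.0194) and Apoc1 fell by 1.75 (SE 0.24, adjusted p 0.0469). Apoa5, Lipc (hepatic lipase) and Pltp (phospholipid transfer protein) had changes of -1.88, -1.55 and -1.47, and were not called with 5 samples.

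Apoa5 lies in the same gene cluster as Apoa1. It read 12.28, 12.30 and 13.30 on Apcfl/fl replicates 1, 2 and 3, so it was highest on replicate 3, where Apoa1 was lowest. On the Apc+/+ arrays it read 14.44, 14.95 and 14.64. Pon1 was higher on replicate 3 as well, with 10.28, 10.19 and 11.41. The other cluster genes Apoc3 and Apoa4 had no named probe. Of the protein-coding genes within 100 kb of Cebpa in the RefSeq table, Pepd (a dipeptidase) was named, and its signal was higher in HCC, with 9.14, 9.11 and 7.75 against 6.52, 5.77 and 6.35 (log2 change 2.22, adjusted p 0.0977 by limma with 5 samples).

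Cps1 shared its lists with few named genes. Of 18 genes of the urea cycle and ammonia handling, Oat, the ornithine aminotransferase of pericentral hepatocytes, was the other one named, with a log2 change of -1.22 (adjusted p 0.0790). No other urea cycle enzyme was named. Of 20 periportal genes 3 were named, and beside Cps1 these were Igf1 (-1.18, adjusted p 0.0692) and Ctsc, a lysosomal protease also found in leukocytes (2.10, adjusted p 0.102). None of the 3 was called with 5 samples by limma. With 6 arrays Cps1 and Igf1 were called lower and Ctsc higher, where 4.1% and 3.44% of all tested probes were. All 3 passed an unadjusted p of 0.05 by limma. The study had already called all 3 on these arrays, so nothing can be read from this.

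Of 24 pericentral genes 8 were named, 6 with a lower and 2 with a higher mean, and the median log2 change was -1.95. Cyp2e1 fell by 4.06 (SE 0.34, adjusted p 0.0194) and Cyp2c37 fell by 3.25 (SE 0.39, adjusted p 0.0359). Cyp2a5 (4.95, adjusted p 0.0585) and Car2 (2.98, adjusted p 0.0595) had a higher mean and passed with 6 arrays, not with 5 samples. Lect2 (-2.58, adjusted p 0.0757), a secreted target of β-catenin, Cyp1a2 (-2.38, adjusted p 0.124), and Oat and Tbx3, given above, were not called with 5 samples. With 6 arrays Lect2 (adjusted p 0.0173), Oat (0.0212) and Tbx3 (0.0371) passed, which made 5 pericentral genes lower and 2 higher. Of all tested probes 4.1% were called lower and 3.44% higher with 6 arrays, and 0.896% and 1.03% with 5 samples. Whether periportal and pericentral genes differed in their change was not tested, since so few were named.

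Of 51 hepatocyte secreted proteins 5 were named. Mup3 (a major urinary protein) fell by 1.35 (adjusted p 0.0427), Orm2, an acute-phase protein, rose by 1.74 (adjusted p 0.0398), and Hamp (-2.24), Serpina1e (-1.77) and F9 (-0.90) were not called with 5 samples. With 6 arrays Hamp was called lower (adjusted p 0.0108) and Serpina1e and F9 were not. For calls towards higher signal the share of all tested probes was 1.03% with 5 samples and 3.44% with 6 arrays. Serpina1e, which encodes an α1-antitrypsin, read 16.18, 16.18 and 14.91 in HCC and 16.91, 17.50 and 17.53 in Apc+/+ liver, and so had the low replicate 3 of Apoa1 and Cebpa. Mup3 with 16.87, 16.84 and 16.96 in HCC did not. Close copies of Mup3, Serpina1e, Orm2 and Cyp2a5 exist in the mouse genome, so these signals may combine several genes. Of 29 genes of gluconeogenesis and amino acid catabolism 4 were named, all with a lower mean. With 5 samples 1 was called and with 6 arrays 4, where 0.896% and 4.1% of all tested probes were called lower. All calls towards lower signal with 5 samples were lost on removing a single Apc+/+ array, whichever it was: limma then called 0 probes lower, and 2339 to 2902 passed the unadjusted threshold. Calls towards higher signal went from 469 to 0, 1 and 0 without Apc+/+ replicate 1, 2 and 3, respectively.

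**Figure D4:**
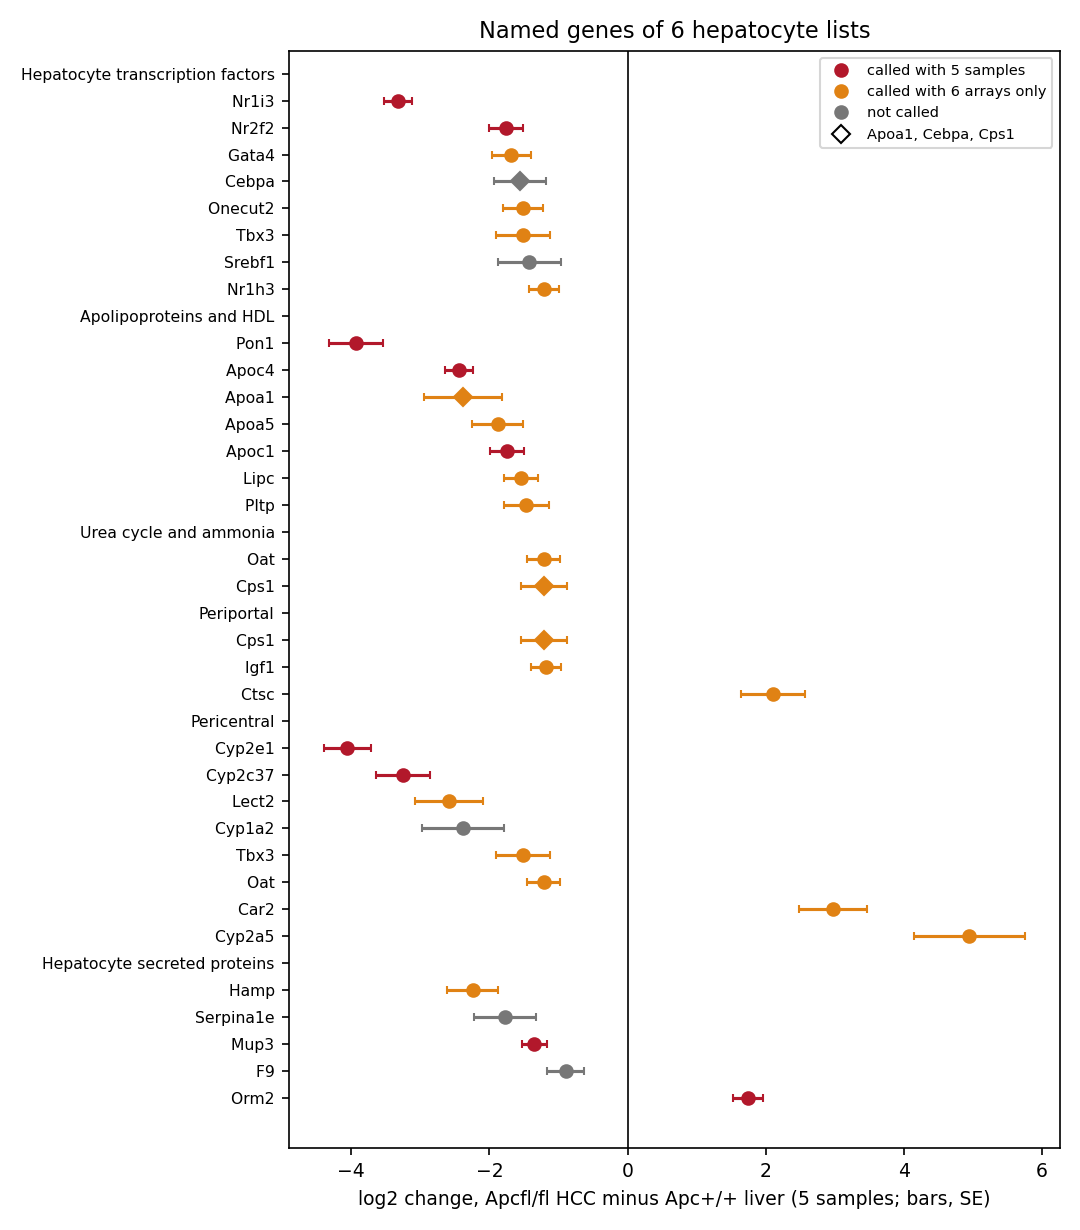
Log2 change (Apcfl/fl HCC minus Apc+/+ liver, 5 samples, bars are SE) of every named gene of 6 hepatocyte lists, with Apoa1, Cebpa and Cps1 as diamonds; a gene in more than 1 list is drawn in each. Red marks genes past the adjusted threshold with 5 samples, orange those past it with 6 arrays, grey the others; all named transcription factors and HDL genes lie left of 0, while Ctsc, Car2, Cyp2a5 and Orm2 lie right of it.

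Apoa1 was the sole named one of 8 hepatocyte markers and was bright on every array, so hepatocyte RNA was measured in both groups. Of 24 markers of other cell types 5 were named. The cholangiocyte list was represented by Spp1, also known from liver tumours, which rose from 8.09 to 13.10 (adjusted p 0.0351) and read 13.86, 13.89 and 12.33 on Apcfl/fl replicates 1, 2 and 3. It had 5 probes with log2 changes from 1.87 to 5.004, of which the brightest is given. The leukocyte list, by Cd74 and Adgre1, ranged from 9.72 to 10.02 in its mean level on the Apcfl/fl arrays and from 8.12 to 8.39 on the Apc+/+ arrays. Its members went opposite ways on Apcfl/fl replicate 3, as Cd74 read 12.90, 13.07 and 11.35 on replicates 1, 2 and 3 and Adgre1 read 7.08, 6.96 and 8.08. Lrat of stellate cells ranged from 4.64 to 6.09 against 6.79 to 7.13, and Pecam1 of endothelium from 5.10 to 5.96 against 6.90 to 7.22. On the Apcfl/fl arrays 52 to 196 negative-control spots were as bright as Lrat or brighter and 57 to 102 as bright as Pecam1 or brighter, and on the Apc+/+ arrays 0, so the size of both differences is uncertain. None of these 4 passed the adjusted threshold with 5 samples by limma. All 4 passed an unadjusted p of 0.05, but the study had already called them, so nothing can be read from this. Lrat and Pecam1 passed with 6 arrays, where 4.1% of all tested probes were called lower. A second, dimmer Cd74 probe passed with 6 arrays (1.58, adjusted p 0.0275). The other markers had no named probe and could not be read.

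Of 15 proliferation genes 9 were named, and all 9 had a higher mean. With 5 samples 5 were called higher and with 6 arrays 9, where 1.03% and 3.44% of all tested probes were. The 9 had already been called by the study on these arrays, so the counts describe selected genes and say nothing about the list. At most 1 probe of the whole array was called higher when an Apc+/+ array was left out. The mean level of the 9 proliferation genes was 10.09, 10.10 and 9.20 on Apcfl/fl replicates 1, 2 and 3 and 6.21 to 6.34 on the Apc+/+ arrays. In the list of fetal liver and HCC genes both named ones, Spp1 and Tff3, were called higher. Replicate 3, where Apoa1 and Cebpa were lowest, thus had the lower level of proliferation genes and of Spp1 among the Apcfl/fl arrays. The part of these cell types and of proliferation in the signals of Apoa1, Cebpa and Cps1 was not tested.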

How the data were processed

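RNA of 3 Apcfl/fl HCC and 3 Apc+/+ livers had been freed of rRNA, amplified with random primers, labelled with Cy3 and hybridised to an Arraystar mouse lncRNA array with mRNA probes. The authors extracted the scans with Agilent Feature Extraction (11.0.1.1, per the submitters' processing notes). The deposited files hold spot intensity on a linear scale, background-subtracted and not normalised between arrays. A deposited table holds the authors' quantile-normalised log2 values of 4197 probes they had called. The table was used for names and as an alternative.

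Control spots, negative-control probes and spots flagged as outliers were left out. Processed intensities were taken to log2, averaged per probe and quantile normalised over 59631 probes. Probes well above background on at least 3 of 6 arrays were tested, 45640 in all. Apcfl/fl replicates 1 and 2 were averaged because their mean chi-square was below 1. Groups were compared with limma (3.58.1, R 4.3.3), two-sided, no covariate, with Benjamini-Hochberg adjustment over all tested probes, and the fit was tested on simulated data. The number of arrays limits the precision, and p-values measure the spread between these samples.

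Accessions were matched to symbols with the RefSeq table of GRCm38.p6. Of 4197 probes in the table, 2315 gained 1 symbol. No probe coordinates were used. Named genes are the members, the 3 named mRNAs closest to each, and the named genes of the hepatocyte lists. Where probes shared a gene the brightest one was kept. Members and lists were chosen with earlier results of these data known. The design called for normexp on the mean signal, which was replaced by the median signal that the files hold. Other alternatives were 75th percentile scaling, other filters on dim probes, 6 arrays as samples, replicate or slide row as a block, eBayes with trend and robust, the methods' t-test, the authors' values and leaving out each replicate.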

Additional observations from a re-analysis of the deposited data

How the results depend on the processing

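The log2 changes of Apoa1, Cebpa and Cps1 were negative in all 17 limma settings, which include the main one. Every Apcfl/fl array was below every Apc+/+ array for these genes. The sign was therefore fixed in advance wherever arrays were left out, averaged or blocked, or the probe filter or eBayes options changed. The changes ranged from -2.88 to -1.47 for Apoa1, -2.13 to -0.99 for Cebpa and -1.49 to -0.65 for Cps1. Adjusted p-values ranged from 0.0416 to 0.429, 0.0629 to 0.399 and 0.0421 to 0.440, the lowest with 6 arrays and the highest with the slide row as a block. The calls with 6 arrays had changes of -2.21 (Apoa1) and -1.22 (Cps1), and by the methods' t-test, whose threshold is unadjusted, -1.37 for Cebpa with the same values for the other two. Within slide row 1 the changes were -1.47 for Apoa1 and -0.65 for Cps1. The fall from replicates 1 and 2 to replicate 3 was 0.68 for Apoa1 and 0.84 for Cebpa with 75th percentile scaling. Apc+/+ replicates 2 and 3 averaged as well, leaving out Apcfl/fl replicates 1 and 2 together, and values within slide row 1 were chosen after seeing the data.

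The number of probes called lower was 409. It was 889 with normexp, 91 without a filter on dim probes (59631 probes tested) and 1213 with probes well above background on all 6 arrays (29700 tested). When 6 arrays were used it was 1872, and under trended and robust eBayes 1060. By the methods' t-test it was 2511 at an unadjusted threshold, which 2670 probes passed as lower by limma in the main fit. It was 0 by limma with the slide row as a block, with Apc+/+ replicates 2 and 3 averaged, and without Apcfl/fl replicates 1 and 2, where 2261, 2385 and 3099 passed the unadjusted threshold. Leaving out 1 replicate gave 0 to 475, and 146 without Apcfl/fl replicate 3. Causes were not tested beyond the numbers of probes and samples. Called in either direction were 878 probes, against 1651 with normexp, 277 without a filter, 1966 with the strict filter, 3441 with 6 arrays and 1900 with trend and robust. It was 361 without Apcfl/fl replicate 3, 0, 1 and 0 without Apc+/+ replicate 1, 2 and 3, and 0 with the slide row as a block and in both settings that averaged or left out a pair of arrays.

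The labels do not state that replicate numbers pair the samples. Deviations of same-numbered arrays correlated at 0.11, -0.08 and 0.08 over 29700 probes. With Apcfl/fl replicates 1 and 2 alike within noise, this cannot decide whether the numbers pair samples. With the replicate block on the 6 arrays the adjusted p was 0.102 for Apoa1, 0.105 for Cebpa and 0.0844 for Cps1, with log2 changes of -2.21, -1.37 and -1.22, and 486 probes were called lower. The Cps1 probe was no brighter in the tumours than some negative-control spots, and what this did to its log2 change was not tested.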
